A study of Mus musculus with 13 samples.

Results

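Collagen VI is built from 3 chains, α1, α2 and α3, encoded by Col6a1, Col6a2 and Col6a3. Its transcripts were followed in the presumptive intervertebral disc (IVD) and vertebrae of mouse embryos through every probe set that the array annotation names for 1 of these genes alone. A probe set is a group of short array sequences that together read 1 transcript. There were 4 such probe sets among 45037, and 3 genes among 18193. They were 1448590_at for Col6a1, 1426947_x_at and 1452250_a_at for Col6a2, and 1424131_at for Col6a3. Both Col6a2 probe sets were designed from the same transcript, so they are not independent, and the ending _x_at marks a probe set that may share probe sequence with other transcripts.

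RNA came from lumbar tissue at E13.5, cut from frozen sections by laser capture microdissection, in which a laser frees chosen areas of a section. The 13 arrays were 3 of control IVD and 3 of control vertebrae, both labelled Cre-;Tgfbr2lox/wt and taken from the same mice, 4 of mutant IVD labelled Cre+;Tgfbr2lox/lox, and 3 of mutant vertebrae labelled Cre+;Tgrbr2lox.lox in the submitters' spelling. Controls carried 1 floxed copy of Tgfbr2, the type II receptor of TGF-β, and no Cre. In mutants both copies were floxed at exon 2 and Cre was driven by the Col2a promoter, so deletion was limited to cells that had used that promoter. By microscope, the study describes the captured disc tissue as mostly its outer ring, the future annulus fibrosus, with little notochord. Each array stood for a separate RNA sample amplified from 50 ng. Because whole pieces of tissue were measured, fewer cells of a type and less RNA per cell cannot be told apart.

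The chains of collagen VI fold together inside the cell as a heterotrimer, are joined into larger units before secretion, and outside the cell form beaded microfilaments. These lie in the pericellular matrix, the thin coat between a cell and the surrounding fibrils. In cartilage and in the annulus fibrosus they tie cells to collagen fibrils through small proteoglycans and matrilins. Inherited defects in any of these chains cause Bethlem myopathy and Ullrich congenital muscular dystrophy, in which muscle weakness is joined by lax or contracted joints.

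Col6a1 and Col6a2 lie on mouse chromosome 10 in the same orientation, with 2 long non-coding RNA genes and 0 protein-coding genes annotated between them, while Col6a3 lies on chromosome 1. Their promoters are shown because these chains varied together over the arrays although Col6a3 lies on another chromosome. Each RefSeq sequence (GRCm38.p6) runs from 250 bases before to 50 after an annotated start, on the minus strand: chr10:76725995-76726294 for Col6a1, chr10:76623581-76623880 and chr10:76623355-76623654 for the upstream and downstream starts of Col6a2, which overlap, and chr1:90843922-90844221 for Col6a3. Capitals mark every match, on either strand, to the Smad-type element CAGAC, the AP-1 element TGANTCA, the GC box GGGCGG or the promoter box TATAAA, and matches of different motifs did not overlap.
Col6a1: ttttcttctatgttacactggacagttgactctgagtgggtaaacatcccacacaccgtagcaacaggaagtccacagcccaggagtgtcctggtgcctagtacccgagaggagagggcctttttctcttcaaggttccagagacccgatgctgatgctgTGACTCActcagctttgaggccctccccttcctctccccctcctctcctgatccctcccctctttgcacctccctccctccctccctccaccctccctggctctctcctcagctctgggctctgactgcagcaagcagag
Col6a2 upstream start: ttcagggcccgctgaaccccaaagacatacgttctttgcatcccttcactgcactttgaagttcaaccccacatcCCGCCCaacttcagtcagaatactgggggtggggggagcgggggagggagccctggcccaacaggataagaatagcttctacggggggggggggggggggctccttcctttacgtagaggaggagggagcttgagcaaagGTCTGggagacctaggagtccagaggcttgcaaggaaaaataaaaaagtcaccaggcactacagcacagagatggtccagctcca
Col6a2 downstream start: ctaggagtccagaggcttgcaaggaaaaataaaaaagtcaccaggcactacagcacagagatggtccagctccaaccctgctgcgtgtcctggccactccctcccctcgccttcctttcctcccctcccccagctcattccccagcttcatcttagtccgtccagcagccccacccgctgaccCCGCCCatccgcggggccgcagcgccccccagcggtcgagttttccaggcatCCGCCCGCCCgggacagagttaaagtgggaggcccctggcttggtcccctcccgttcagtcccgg
Col6a3: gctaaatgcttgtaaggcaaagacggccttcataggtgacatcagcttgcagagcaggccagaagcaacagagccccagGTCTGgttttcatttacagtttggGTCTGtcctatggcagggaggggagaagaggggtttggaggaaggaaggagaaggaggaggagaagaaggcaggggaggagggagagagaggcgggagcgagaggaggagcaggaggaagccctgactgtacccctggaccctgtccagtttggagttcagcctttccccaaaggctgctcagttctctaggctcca
Among 32851 promoters of this length, 49.6% held CAGAC, 7.81% TGANTCA, 35.7% GGGCGG and 13.6% TATAAA. The Col6a1 promoter had 1 AP-1 element and no other match. The upstream start of Col6a2 had 1 CAGAC and 1 GC box, and the downstream start had 3 GC boxes, of which 2 overlapped. The Col6a3 promoter had 2 CAGAC elements. No motif was found in all of these promoters, and 0 held TATAAA. GC content ran from 56.3% for Col6a3 to 64.3% for the downstream start of Col6a2, against a median of 52.7% over all promoters. These are matches of letters in a fixed window and not sites known to be used.

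Values were log2 signals relative to the median of the 13 arrays for the same probe set, so they give differences between arrays and no level, and chains cannot be ranked by abundance. Some arrays carried transcripts of neighbouring tissue. Liver transcripts (averaged over 10 genes) reached 5.67 on array 1 of control vertebrae, 5.48 on array 1 of control IVD, 3.63 on mutant IVD 4 and 2.65 on mutant IVD 3, and no more than 0.25 elsewhere. Neuronal transcripts (averaged over 12 genes) reached 3.33 on mutant IVD 3 and 2.66 on array 3 of control vertebrae, and no more than 0.76 elsewhere. Skeletal muscle transcripts (averaged over 12 genes) reached 2.25 on control IVD 1, 2.23 on mutant IVD 4 and 0.69 on control vertebrae 1, and no more than 0.30 elsewhere, so the highest means were in IVD. Erythroid transcripts (averaged over 8 genes) were high on the same arrays as liver, at 4.03 on control vertebrae 1, 3.86 on control IVD 1, 2.28 on mutant IVD 4 and 1.90 on mutant IVD 3, and no more than 0.12 elsewhere. The mean of 3 Y-linked genes was 1.55 to 2.35 in 5 mutant arrays and below 0 in mutant IVD 3, mutant vertebrae 3 and every control array. Xist, a female transcript, ran from -6.88 to -5.83 in those 5 arrays and from -0.04 to 1.81 in all others. Those 5 arrays thus had a male pattern, and every control array, mutant vertebrae 3 and mutant IVD 3 a female pattern. Genotype and sex therefore cannot be fully told apart where mutants are compared with controls, nor in the interaction. As a check of the labelled tissues, the mean of 13 cartilage genes ran from -1.08 to -0.06 over control IVD arrays and from -0.12 to 0.73 over those of control vertebrae. It ran from -1.48 to -0.02 over mutant IVD arrays and from 0.25 to 0.94 over those of mutant vertebrae. Tgfbr2 itself, the mean of 3 probe sets whose place relative to exon 2 was not analysed here, was 0.24, 0.29 and -0.11 in control IVD and 0.48, 0.33, 0.15 and 0.06 in mutant IVD. In vertebrae it was 0.03, -0.01 and -0.18 in controls and -0.60, -0.23 and -0.04 in mutants. These probe sets therefore did not separate mutant from control arrays.

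The chains varied together from array to array. Col6a1 was 1.08, 2.11 and 0.83 in control IVD 1 to 3 and -1.44, 0 and -1.12 in control vertebrae 1 to 3. It was 1.63, 0.73, -2.22 and 0.74 in mutant IVD 1 to 4 and -0.85, -0.79 and -0.45 in mutant vertebrae 1 to 3. All IVD arrays except mutant IVD 3 were above all vertebrae arrays, and mutant IVD 3 was the lowest of the 13. Col6a3 was 1.05, 2.09 and 0.89 in control IVD and -1.07, 0 and -0.95 in control vertebrae. It was 1.89, 1.51, -1.68 and 0.61 in mutant IVD and -1.54, -1.36 and -0.72 in mutant vertebrae. Col6a3 thus had the same split, with mutant IVD 3 again below every other array.

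**Figure D1:**
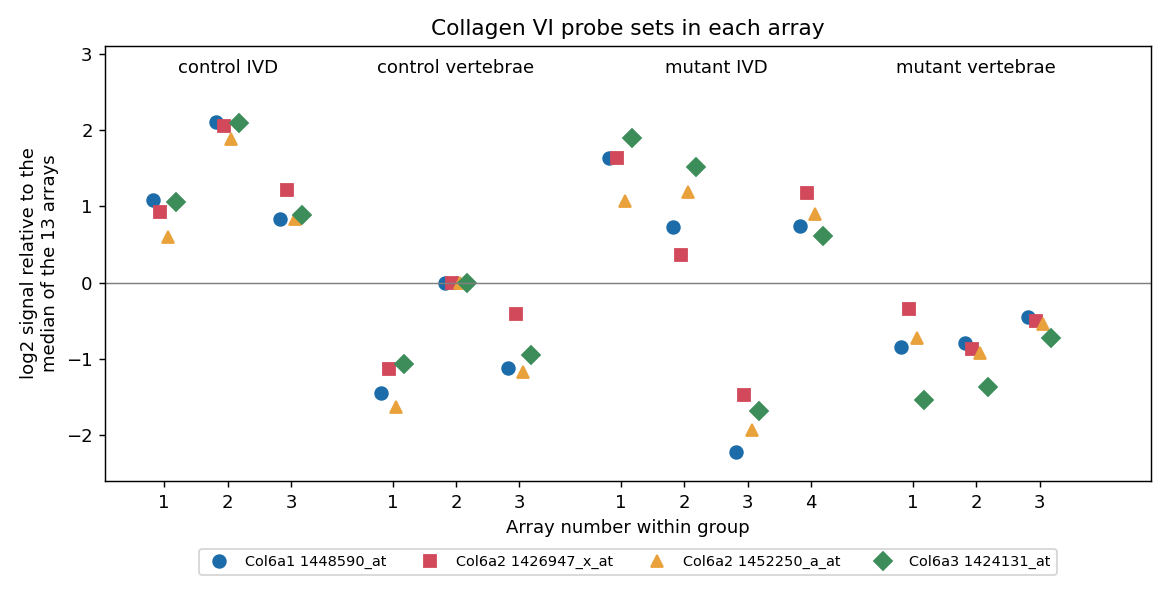
Log2 signal of the 4 collagen VI probe sets (markers) in each of the 13 arrays, relative to the median of the arrays for that probe set; arrays are numbered within their group on the horizontal axis. Mutant IVD 3 lies between -2.22 and -1.47, below all vertebrae arrays within each probe set, while the other IVD arrays lie at 0.37 or above.

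Both Col6a2 probe sets followed this pattern. Probe set 1426947_x_at was 0.93, 2.05 and 1.21 in control IVD and -1.14, 0 and -0.41 in control vertebrae. It was 1.64, 0.37, -1.47 and 1.17 in mutant IVD and -0.34, -0.87 and -0.51 in mutant vertebrae. Probe set 1452250_a_at was 0.60, 1.88 and 0.84 in control IVD, -1.63, 0 and -1.17 in control vertebrae, 1.07, 1.19, -1.93 and 0.89 over mutant IVD, and -0.73, -0.92 and -0.54 in mutant vertebrae. They differed from each other by at most 0.82 in an array. Control vertebrae 2 held the median, 0, for every collagen VI probe set and was the highest of the vertebrae. With the Col6a2 probe sets averaged, the highest and lowest chain of an array lay 0.38 apart in the median array and 1.01 apart at most, whereas the mean of the chains spanned 3.92 over the arrays.

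To find genes that mark the future IVD, control IVD was compared with control vertebrae. Transcripts of all of these chains were about 4-fold higher in control IVD, and the IVD and vertebrae arrays did not overlap for any collagen VI probe set. Col6a1 was 4.57-fold higher, a log2 difference of 2.19 (SE 0.78; 95% interval 0.49 to 3.89). Col6a3 was 4.04-fold higher, a log2 difference of 2.01 (SE 0.74). The Col6a2 probe sets were 3.77-fold (1426947_x_at; log2 1.92, SE 0.64) and 4.11-fold (1452250_a_at; log2 2.04, SE 0.72) higher. Among all probe sets 3.54% had every control IVD array above every control vertebrae array, and 0.864% were at least 2-fold higher. Without control IVD 1, the control IVD array richest in muscle transcripts, the log2 differences were 2.32 for Col6a1, 2.15 and 2.29 for Col6a2 and 2.16 for Col6a3. This array lay below the control IVD mean for each probe set, so leaving it out had to raise them.

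In the limma fit of the 4 groups, unadjusted p was 0.0156 for Col6a1, 0.0113 and 0.0155 for Col6a2 and 0.0187 for Col6a3, and each adjusted p rounded to 1. No probe set of the whole array (0%) passed an adjusted p of 0.05, with 1105 (2.45%) at an unadjusted p under 0.05 in limma and 0 adjusted and 1094 unadjusted by an unequal variance test. At least 2-fold higher with an unadjusted p under 0.05 were 0.511% of all probe sets, and all 4 collagen VI probe sets were among them.

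Control arrays of the same number varied together, and the difference between tissues was alike in each such pair. Col6a1 was higher in IVD by 2.52, 2.11 and 1.95 on the log2 scale in pairs 1, 2 and 3. For Col6a3 the pairs gave 2.12, 2.09 and 1.84. For Col6a2 they gave 2.06, 2.05 and 1.63 with 1426947_x_at and 2.23, 1.88 and 2.01 with 1452250_a_at. The collagen VI probe sets were thus among 133 of 45037 that were at least 2-fold higher in IVD in all 3 pairs. When array number entered as a fixed block in the control arrays, limma's adjusted p was 0.0389 for Col6a1, 0.0441 and 0.0388 for Col6a2 and 0.0388 for Col6a3. That fit called 32 probe sets (0.0711%), 29 of them higher in IVD (0.0644%). With the number as a random block the adjusted p was 0.0729 for Col6a1, 0.0639 and 0.0913 for Col6a2 and 0.0620 for Col6a3, so none passed, while 42 probe sets (0.0933%) did. The call therefore rests on how the pairs are modelled, and the sources used here do not state which numbers share a mouse.

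**Figure D2:**
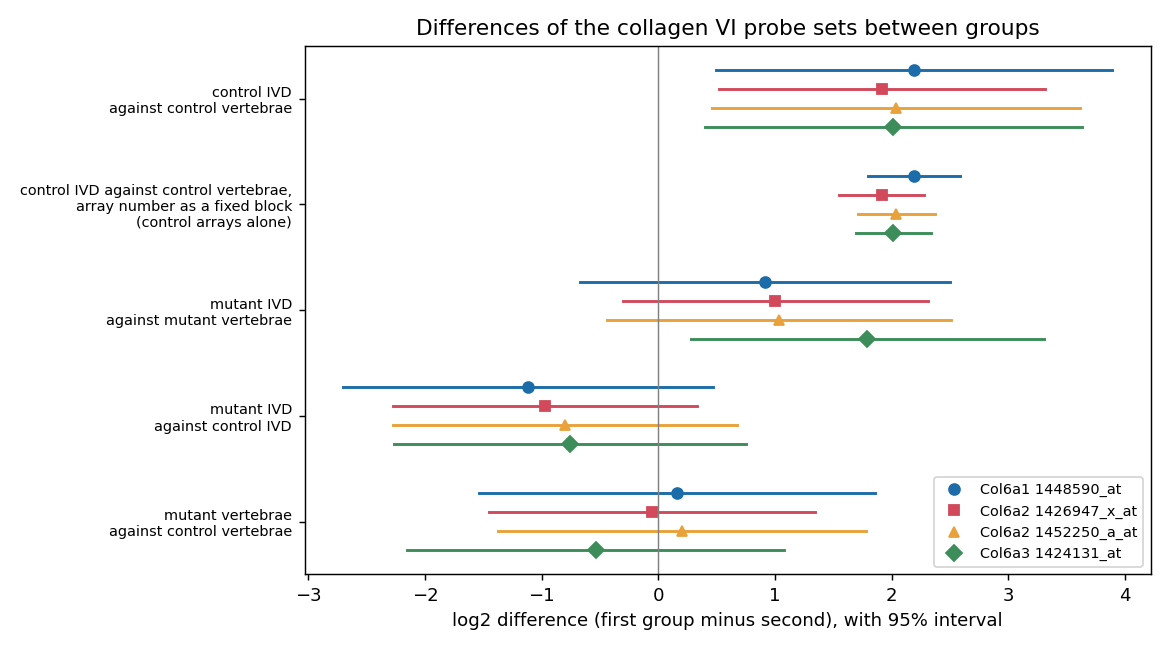
Log2 difference between groups (first minus second, horizontal axis) for each collagen VI probe set, with 95% intervals from limma; the second row of groups repeats the control comparison with array number as a fixed block. Differences lie near 2 between control tissues, with intervals that leave out 0, while 3 of 4 intervals between mutant tissues and all intervals between mutant and control include 0.

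In mutant embryos the tissue difference depended on mutant IVD 3. Over all 4 mutant IVD arrays, Col6a3 was 3.46-fold higher than in mutant vertebrae (log2 1.79, SE 0.69), and this was the largest difference of the chains. Col6a1 was 1.89-fold higher (log2 0.92, SE 0.73), and the Col6a2 probe sets 2.001-fold and 2.05-fold higher (log2 1.001, SE 0.60, and log2 1.04, SE 0.68). The adjusted p in limma was 0.521 for Col6a3, 0.785 for Col6a1 and 0.724 and 0.747 for Col6a2, in a comparison where 7 probe sets (0.0155%) passed. The groups overlapped for every collagen VI probe set. Without mutant IVD 4, the mutant array richest in muscle transcripts, the log2 differences were 0.74 for Col6a1, 0.75 and 0.84 for Col6a2 and 1.78 for Col6a3. This array lay above the mutant IVD mean for each probe set, so leaving it out had to lower them.

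Mutant IVD 3 lay below the mean of the other 3 mutant IVD arrays, with a log2 difference of -3.25 for Col6a1. For Col6a3 that difference was -3.02 and for Col6a2 -2.53 and -2.98. All 4 collagen VI probe sets were at least 2-fold lower in mutant IVD 3 than in each other mutant IVD array, as were 1.23% of all probe sets. The mean of 11 other genes of fibrous tissue was -1.11 in this array and 0.36 to 0.79 in the other mutant IVD arrays. Mutant vertebrae ran from -1.25 to 0.27 in that mean. In the mean of 13 cartilage genes the array lay above every other IVD array and below mutant vertebrae. It was at -0.02, against -1.48 to -0.40 in the other mutant IVD arrays and -1.08 to -0.06 in control IVD. Mutant vertebrae ran from 0.25 to 0.94, and control vertebrae, whose range took in its value, from -0.12 to 0.73. Matn1, a matrilin of cartilage, was 0.60 in mutant IVD 3 and -2.62, -2.49 and -3.69 in the others, beside 0.88 to 1.75 in mutant vertebrae. Col9a3, a chain of the collagen on the surface of cartilage fibrils, was -0.24 there and -0.24, -0.54 and -0.33 in the others, beside 0.45 to 0.78 in mutant vertebrae. Matn1 and Col9a3 were picked after their values were seen. Of the other cartilage collagens, Col2a1, Col9a1, Col11a1 and Col27a1 lay within the mutant vertebrae range in this array, and Col9a2 and Col11a2 below it. Col2a1 and Col9a2 also lay within the range of the other mutant IVD arrays. Mutant IVD 3 also had the highest neuronal mean of all arrays and was the only mutant IVD array without the male pattern. The part of either in these values was not tested.

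Because mutant IVD 3 was the lowest array for every collagen VI probe set, leaving it out had to enlarge the tissue difference in mutants. The array was singled out for these values, so those without it are a description with no test. Col6a3 was then higher in mutant IVD by 2.55 on the log2 scale, Col6a1 by 1.73, and Col6a2 by 1.63 and 1.78.

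Between mutant and control IVD, which addresses whether loss of Tgfbr2 alters disc transcripts, the chains had lower means in mutants but none passed the test. The log2 difference was -1.12 for Col6a1 (SE 0.73; 95% interval -2.70 to 0.47), -0.97 and -0.80 for Col6a2 (SE 0.60 and 0.68) and -0.76 for Col6a3 (SE 0.69). The unadjusted p ran from 0.131 to 0.295 in limma, and every adjusted p rounded to 1. The groups overlapped for all of them. In this comparison 0% of probe sets passed after adjustment, with 1411 (3.13%) at an unadjusted p under 0.05 in limma and 0 adjusted and 1404 unadjusted by the unequal variance test.

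Most of that difference came from 1 array. Without mutant IVD 3, again as a description, it was -0.30 for Col6a1, -0.34 and -0.05 for Col6a2, and -0.01 for Col6a3. Within single probe sets, some remaining mutant IVD values still lay below every control IVD array. For Col6a1, mutant IVD 2 and 4 were at 0.73 and 0.74, against a lowest control IVD value of 0.83. For Col6a3, mutant IVD 4 was at 0.61, against 0.89. For Col6a2 probe set 1426947_x_at, mutant IVD 2 was at 0.37, against 0.93. All other remaining mutant IVD values lay within the control IVD range of their own probe set. Leaving out the 4 arrays rich in liver transcripts, mutant IVD 3 among them, Col6a1 was at -0.28, Col6a2 at -0.63 and -0.23, and Col6a3 at 0.21, so the sign turned for Col6a3 alone.

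In vertebrae the chains did not differ between mutant and control beyond the spread between arrays. The log2 difference was 0.16 for Col6a1 (SE 0.78), -0.06 and 0.20 for Col6a2 (SE 0.64 and 0.72) and -0.54 for Col6a3 (SE 0.74). The intervals were wide, from -1.54 to 1.86 for Col6a1 and from -2.15 to 1.08 for Col6a3, and each adjusted p in limma was 0.998. Here too 0% of probe sets passed, with 1177 (2.61%) at an unadjusted p under 0.05 in limma and 0 adjusted and 614 unadjusted by the unequal variance test.

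The test of whether the tissue difference itself depended on genotype gave -1.28 for Col6a1 (SE 1.07), -0.91 and -1.003 for Col6a2 (SE 0.88 and 0.99) and -0.22 for Col6a3 (SE 1.01). Negative values mean a smaller tissue difference in mutants. None passed (limma adjusted p of 1 after rounding for all), nor did any other probe set (0%), with 619 (1.37%) at an unadjusted p under 0.05 in limma and 506 by the unequal variance test. For Col6a3 the sign turned to 0.53 without mutant IVD 3.

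In mutant vertebrae Col6a3 lay lower relative to Col6a1 than in any other array, a description that no test with so few arrays could decide. Within an array, Col6a3 minus Col6a1 compares how far each chain lay from its own median, and the comparison was chosen after its values were seen. Col6a3 and Col6a1 were each read by 1 probe set, while the 2 probe sets of Col6a2 differed by up to 0.82 in an array. It was -0.69, -0.58 and -0.27 in mutant vertebrae, against 0.38, 0 and 0.17 in control vertebrae and -0.02, -0.02 and 0.06 in control IVD. In mutant IVD it was 0.26, 0.78, 0.54 and -0.13. The difference between mutant and control vertebrae was -0.70 (exact permutation test, two-sided p = 0.1, the smallest that 3 against 3 arrays can give). Between mutant IVD and mutant vertebrae it was 0.88 (exact permutation test, two-sided p = 0.0571, the smallest for these groups). Of 12 such tests, over 3 pairs of chains and 4 comparisons, none could reach 0.05 with these numbers of arrays, even before adjustment. That none passed therefore decides nothing, and the lowest adjusted p was 0.343 in the exact permutation tests. The difference between mutant and control vertebrae ran from -0.82 to -0.60 when any array of either group was left out. Its sign could not turn, since these groups did not overlap.

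**Figure D3:**
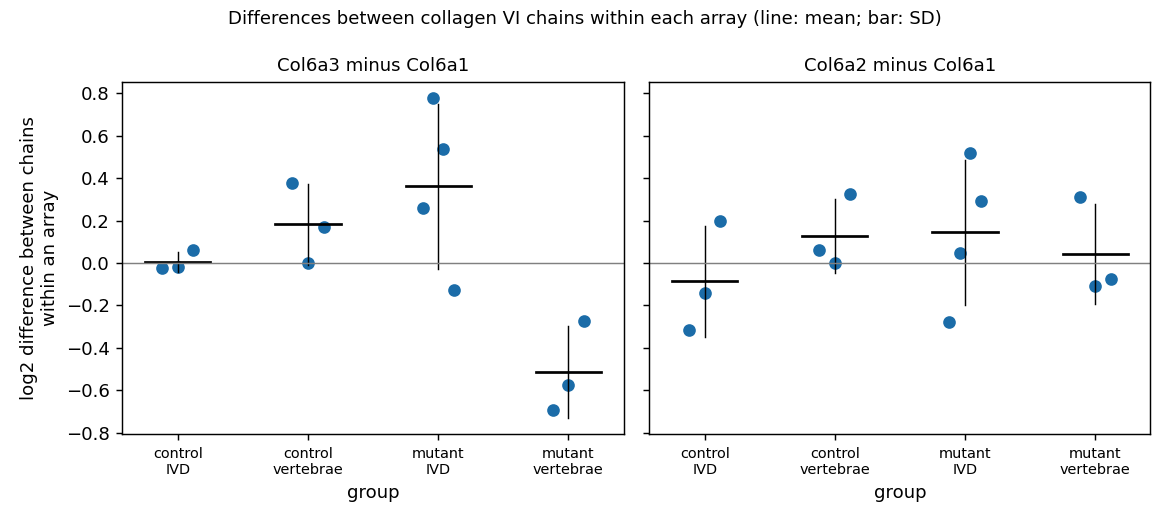
Difference between chains within each array (vertical axis, log2) for Col6a3 minus Col6a1 and Col6a2 minus Col6a1, by group; points are arrays, horizontal lines means and vertical bars SD. Col6a3 minus Col6a1 lies between -0.69 and -0.27 in mutant vertebrae and at -0.13 or above in every other array, while Col6a2 minus Col6a1 overlaps between all groups.

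Col6a2 minus Col6a1 did not separate any groups. Its mean was -0.09 ± 0.26 (SD, n = 3) in control IVD, 0.13 ± 0.17 (SD, n = 3) in control vertebrae, 0.14 ± 0.34 (SD, n = 4) in mutant IVD and 0.04 ± 0.23 (SD, n = 3) in mutant vertebrae. The largest of its 4 differences between groups was 0.23, between mutant and control IVD (exact permutation test, two-sided p = 0.4). Col6a3 minus Col6a2 was also lower in mutant than in control vertebrae, by a log2 difference of -0.61 (exact permutation test, two-sided p = 0.1).

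For the other members of the collagen VI family the differences were small. Col6a4 differed between control tissues by -0.13 (SE 0.26) and Col6a5 by 0.05 (SE 0.13) on the log2 scale, and neither passed in any comparison. Col6a6 was not named on the array.

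Among 42 collagen genes, each taken as the mean of its probe sets, Col6a1, Col6a3 and Col6a2 had the 3 largest differences between control IVD and control vertebrae. Col8a2, a short-chain collagen of network sheets, followed at 1.50 (SE 0.63), and Col5a2, a chain of the fibrils of loose connective tissue, at 1.25 (SE 0.93). The median of the 42 was 0.04. Of 7 collagens of fibrous tissue, 6 were higher in control IVD, with a median of 0.97, against a median of -0.01 for all genes. Col3a1, of thin fibrils, was at 1.13 (SE 0.86) and Col14a1, which sits on fibril surfaces, at 1.06 (SE 0.52). Of 7 collagens of cartilage 6 were lower, with a median of -0.77, which was -0.38 without control vertebrae 2 and -0.44 without control IVD 1, and Col9a3 was at -0.80 (SE 0.23) and Col11a2 at -0.86 (SE 0.45). No gene of either list passed in limma, and a difference between collagen VI and these collagens was not tested.

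In mutants Col8a2 had the largest difference between IVD and vertebrae, 1.92 (SE 0.59), and Col6a3 the next, while Col6a2 and Col6a1 were in places 9 and 10 of 42. Without mutant IVD 3, Col6a3 was in place 1, Col8a2 in place 2, and Col6a1 and Col6a2 in places 4 and 5. Between mutant and control IVD the chains were the 3 lowest of the 42, at -1.12, -0.89 and -0.76 for Col6a1, Col6a2 and Col6a3. This comparison shares the control IVD arrays with that between control tissues. Without mutant IVD 3 they were in places 7, 9 and 17 from the lowest.

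**Figure D4:**
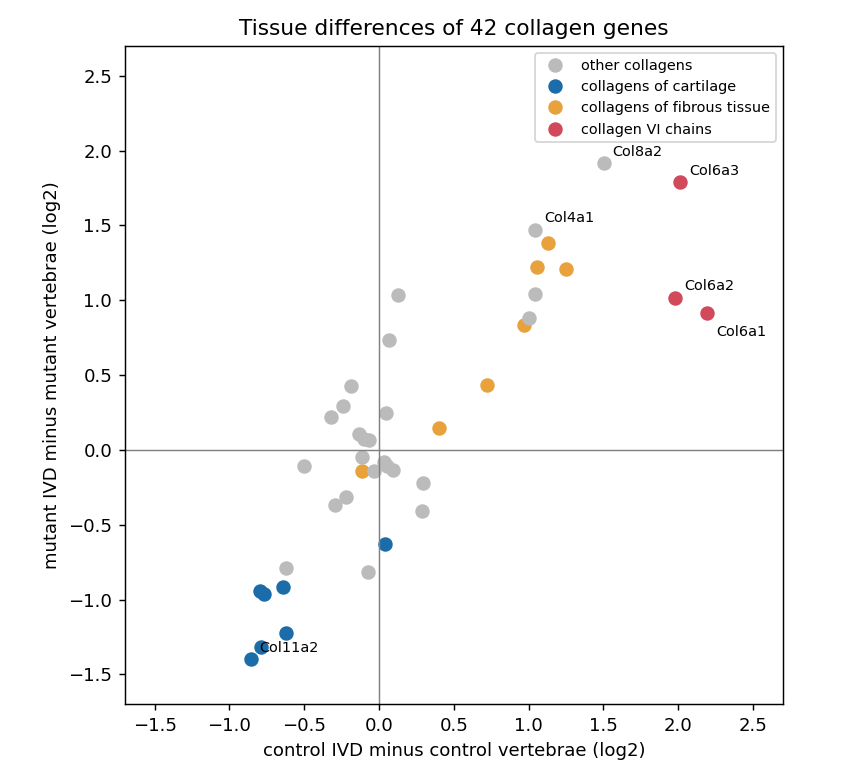
Log2 difference of 42 collagen genes (points) between control IVD and control vertebrae (horizontal axis) and between mutant IVD and mutant vertebrae (vertical axis); colours mark the collagen VI chains and the lists of fibrous and cartilage collagens. The collagen VI chains lie farthest right, between 1.98 and 2.19, and Col8a2 lies highest.

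Receptors of collagen VI shared no direction. Of 9 measured, 6 had higher and 3 lower means in control IVD, and their median was 0.06 on the log2 scale, and 0 passed after adjustment. At an unadjusted p under 0.05 were 2 of 9, beside 2.68% of all genes. The integrin chain Itga10, a collagen receptor of chondrocytes, was -2.94, -0.41 and -0.62 in control IVD and 0, 1.81 and 0.49 in control vertebrae. Its log2 difference was -2.09 (SE 0.77), opposite to collagen VI and without overlap between the groups. Among all probe sets 3.9% had every control IVD array below every control vertebrae array. Antxr1, a membrane protein that binds collagen VI, was 0.37, 0.65 and 0.12 in control IVD and -0.37, -0.27 and -0.56 in control vertebrae, a log2 difference of 0.78 (SE 0.33). Cspg4, the NG2 proteoglycan, was at 0.05 (SE 0.37), Antxr2, which takes up collagen VI for breakdown, at 0.36 (SE 0.50), and Itgb1, the β chain shared by the collagen-binding integrins, at 0.12 (SE 0.21). In mutants Itga10 and Antxr1 differed between tissues by -2.62 (SE 0.72) and 0.83 (SE 0.31).

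Proteins that bridge collagen VI to other matrix lay on both sides. Of 11 measured, 7 were higher and 4 lower in control IVD (median 0.04, but -0.16 without control vertebrae 3 and -0.11 without control IVD 2), and 0 passed after adjustment. Matn1 had the largest difference, -3.41 (SE 0.84), with -3.71, -2.57 and -2.23 in control IVD and 0, 1.10 and 0.62 in control vertebrae. Matn3 and Matn4, other matrilins, were at -1.01 (SE 0.47) and -0.92 (SE 0.48). Biglycan (Bgn), a small proteoglycan that binds collagen VI, was at 1.08 (SE 0.54), whereas decorin (Dcn), its close relative, was at 0.02 (SE 0.36). Mfap2, a microfibril protein, was at 0.70 (SE 0.32) and Vwa1, a pericellular protein, at 0.62 (SE 0.43). Fbn1 was not measured.

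Among enzymes and chaperones that modify and fold collagens no gene passed. Of 14 measured, 10 were lower in control IVD (median -0.13, but 0.12 without control vertebrae 2 and 0.09 without control IVD 1), 0 passed, and 0 were at an unadjusted p under 0.05. The hydroxylase Plod3, which also adds glucose to collagen, was highest at 0.58 (SE 0.36), and the galactosyltransferase Colgalt2 lowest at -0.70 (SE 0.34). Serpinh1, the collagen chaperone Hsp47, was at -0.09 (SE 0.51). In mutants 13 of 14 were lower in IVD (median -0.55, beside 0.00 for all genes), 0 passed after adjustment, and 4 had an unadjusted p under 0.05, beside 8.09% of all genes. Fkbp10 was not measured. Of 4 proteases that cut or process collagens, all were higher in control IVD (median 0.36), none passed, and Mmp2 was the highest at 0.64 (SE 0.37).

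**Figure D5:**
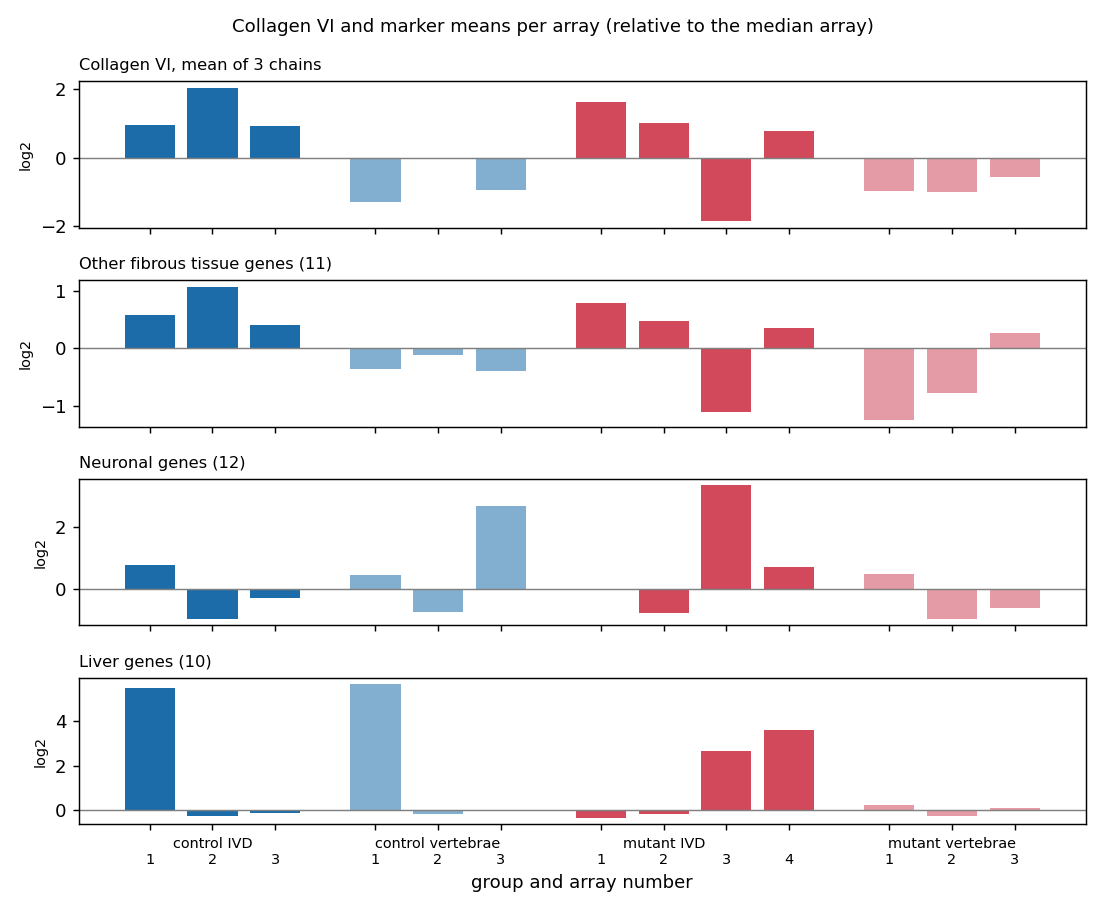
Mean log2 value per array (bars, relative to the median array) of the 3 collagen VI chains and of 11 other fibrous tissue genes, 12 neuronal genes and 10 liver genes, by group and array number. Mutant IVD 3 is the IVD array with negative collagen VI (-1.87) and negative fibrous tissue means (-1.11), and it has the highest neuronal mean (3.33).

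The genes whose values were most like the mean of the chains over the 13 arrays were ranked by Pearson's r, as a description without a test, since arrays share groups and mice. Emilin3, an extracellular glycoprotein, led with r = 0.95 (Spearman's rho 0.87). Tgfbi, a secreted matrix protein, followed with r = 0.95 (rho 0.90), and then Hs3st3a1, a heparan sulfate sulfotransferase (r = 0.94), and Loxl1, a lysyl oxidase that crosslinks elastic fibres (r = 0.94). Tnfaip6, Lsp1, Hhip, Glis1, Gdf5 and Mtmr11 made up the 10, the last with r = 0.93. Emilin3 was 0.78, 1.95 and 1.23 in control IVD, -1.19, 0 and -0.40 in control vertebrae, 1.22, 0.60, -1.04 and 0.84 over mutant IVD, and -1.30, -1.21 and -0.93 in mutant vertebrae. For Emilin3, mutant IVD 3 lay among the vertebrae arrays, whereas for the chains it lay below all of them. Gdf5, a growth factor of forming joints, was 2.01, 3.23 and 2.82 in control IVD and -0.57, 0 and -0.61 in control vertebrae, and 2.58, 2.45, -1.07 and 0.76 in mutant IVD. After group means were removed, Emilin3, Tgfbi and Lsp1 stayed among the 10 genes most like the chains, joined by Gm11266, Mmp14, Glt28d2, Gna14, Nfib, Entpd2 and Aspn. This second ranking rests largely on mutant IVD 3. Its chain mean was -1.87 against a group mean of 0.39, the largest such deviation of any array. Mmp14 is a membrane protease, and Aspn (asporin) a small proteoglycan of fibrous tissue.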

How the data were processed

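RNA of laser-captured lumbar tissue was measured on 13 Affymetrix mouse genome arrays after a 2-cycle amplification. The deposited values are log2 signals that the authors normalized by the RMA method at GeneSpring's defaults. Each row is centred at a median of 0, so the table holds no levels, dim probe sets could not be filtered, and precision is limited by how many arrays there are. Such centring leaves differences between arrays as they were.

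With R 4.3.3, limma 3.58.1 and Python 3.11.15, a model of 4 group means was fitted by lmFit and eBayes to 45037 probe sets (64 array controls were left out). Tests were two-sided, with Benjamini-Hochberg adjustment over all probe sets and calls at an adjusted p under 0.05. The study's methods name an analysis of variance with unequal variances, which was run as an alternative. Lists and collagen ranks used the mean of a gene's probe sets. Of the probe sets, 34945 carried 1 gene symbol, 932 several and 9160 none in the platform annotation used here. Named were all collagen VI probe sets, genes of 7 lists around collagen VI, all collagens by rank, and the 10 genes most like the chains by either measure. The members, lists and tests were chosen with earlier results of these data known, so the difference between control tissues is no independent evidence. Within-array differences between chains were tested by exact permutation over arrays.

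Arrays were grouped by the labels. Control tissues came from the same mice, and once group means were taken out, the deviations of same-numbered control arrays correlated over probe sets at r = 0.80, 0.57 and 0.57, so the number was taken as a pair in the blocked fits (consensus correlation 0.54). Mutant arrays of the same number gave -0.40, 0.24 and -0.15 and were not paired. Alternatives were other fits, quantile normalization, array weights, blocks, marker means as covariates, and leaving out arrays. The model was tested on simulated data with independent noise for each probe set and no effects shared by arrays or pairs. Between control tissues it called 67 of 100 log2 shifts of 2, 98 of 100 shifts of 4, and 19 unchanged probe sets. How the model fares with such shared effects was not tested. Promoters came from RefSeq's table, where all 3 genes had an entry. Its coordinates refer to GRCm38.p6.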

Additional observations from a re-analysis of the deposited data

Results flagged for a closer look

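The Col6a2 probe set 1452250_a_at had 1 mutant IVD array far from the others. Mutant IVD 3 was at -1.93, and the other 3 lay between 0.89 and 1.19, so that the gap to the nearest array was 0.905 of the whole range, above Dixon's 95% critical value of 0.829 for 4 arrays. The same ratio was 0.766 for Col6a1, 0.591 for the other Col6a2 probe set and 0.642 for Col6a3, where the other arrays were more spread out. Such a rule marks about 1 in 20 groups by chance. The part of the neuronal and liver transcripts of mutant IVD 3 in this value was not tested.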

How the results depend on the processing

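Between control tissues all 4 collagen VI probe sets kept their direction under all 27 alternatives, but most of these could not turn it. Settings that changed only the mutant arrays or the estimate of variance left the difference as it was. Leaving out 1 control array could not turn the sign either, since the groups did not overlap. When array number entered as a fixed replicate block in the control arrays they passed, at the same log2 differences of 2.19 (Col6a1), 1.92 and 2.04 (Col6a2) and 2.01 (Col6a3), and the count of called probe sets went from 0 to 32, or to 42 with a random block, 2 with array weights and 0 to 9 when 1 array was left out (9 without mutant IVD 3). The block over all arrays, in which mutant IVD 4 stands alone and so adds nothing, changed no call of a collagen VI probe set. Between mutant tissues the 7 called probe sets became 0 in the fit of the 2 groups alone, by the unequal variance test and in the replicate block over all arrays, 55 with array weights, 88 with the neuronal mean as a covariate, 3 with the Y-linked mean, 29 without the 4 arrays with liver transcripts, and 157 without mutant IVD 3 and control vertebrae 3, an exclusion chosen after seeing the data. When 1 array was left out the count ran from 0 (without control vertebrae 3, mutant vertebrae 2, or mutant IVD 1, 2 or 4) through 2 (without control IVD 1, 2 or 3) and 3 (without mutant vertebrae 3) to 177 (without mutant IVD 3), and Col6a3 from 1.36 to 2.55, passing (limma adjusted p = 0.0368) without mutant IVD 3, whose removal had to raise the difference since it was the lowest array for each chain. Between mutant and control IVD the count ran from 0 to 1 (without control vertebrae 2) when 1 array was left out, and Col6a3 turned to 0.21 without the arrays with liver transcripts. Between mutant and control vertebrae the signs were not stable. Probe set 1426947_x_at of Col6a2 turned to 0.056 with quantile normalization and to 0.074 as the mean of the gene's probe sets. Col6a1 and the other Col6a2 probe set turned to -0.52 and -0.45 with the neuronal mean as a covariate, -0.17 and -0.16 with the liver mean, -0.87 and -0.74 with the Y-linked mean, and -0.13 and -0.14 without the arrays with liver transcripts. Leaving out 1 array gave -0.13 to 0.59 for Col6a1, -0.37 to 0.20 for 1426947_x_at and -0.14 to 0.67 for the other Col6a2 probe set. Signs turned without control vertebrae 1 (Col6a1 and 1452250_a_at), and without control vertebrae 2 or mutant vertebrae 2 (1426947_x_at). For the interaction, Col6a3 turned to 1.03 with the neuronal mean, 0.072 with the liver mean, 0.95 without the arrays with liver transcripts and 0.67 without the neuronal pair of arrays, and ran from -0.66 to 0.53 when 1 array was left out, turning without control IVD 2, mutant vertebrae 3 or mutant IVD 3. The Col6a2 probe set 1452250_a_at turned to 0.19 with the neuronal mean. The cause of these changes was not tested. Of 490 medians of gene lists under other settings, 432 kept their sign and 19 moved beyond the spread between arrays. Of 102 within-array differences between chains 0 did.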
